A study of Arabidopsis thaliana with 7 samples.

Results

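CCA1 (CIRCADIAN CLOCK ASSOCIATED 1) belongs to the MYB-like proteins and sits at the centre of the plant circadian clock, with protein levels that are highest around dawn. It acts mainly as a repressor, and it binds promoters of evening-phased genes through a short AT-rich sequence called the evening element. Its best-known targets include TOC1 and other genes that in turn repress CCA1, which closes a feedback loop. Binding sites of plant transcription factors are usually densest close to the transcription start site (TSS), and the peaks described here are those that lie farther out in the promoter.

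The peaks were those that the authors' annotation called promoter-TSS and whose centre lay from 1000 to 201 bp upstream of the nearest TSS, leaving out those nearest to pseudogenes or to genes of rRNA or tRNA. This gave 396 of 1433 peaks in continuous light (LL), a share of 27.6% (95% Wilson interval 25.4 to 30.0%). In light-dark cycles (LD) it gave 398 of 1607 peaks, a share of 24.8% (22.7 to 26.9%). They made up 46.5% of the 851 promoter-TSS peaks of LL and 42.0% of the 948 promoter-TSS peaks of LD. The core promoter, taken as the stretch that runs from −200 bp to 100 bp past the start, held 419 peaks in LL and 513 in LD. The gene type filter had removed 15 peaks in LL and 14 in LD.

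The chromatin came from whole 14-day-old Arabidopsis seedlings of the WS-2 ecotype that carried a GFP-tagged CCA1 driven by the CCA1 promoter. Plants had been entrained to 12 h of light and 12 h of dark, and material was taken at ZT2, that is, 2 h after dawn or subjective dawn, either in continuous light (3 libraries) or in the light-dark cycle (2 libraries). Both regimes share the tagged line, the age, the time of day and the anti-GFP precipitation (controls were IgG or input), so neither list holds a sample without the transgene, and the whole seedling mixes all organs and cell types. A ZT14 library of LL and an input library were not analysed here.

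Each regime was deposited as 1 peak list made from its combined libraries. There is thus 1 list per regime, no replicate value stands behind any peak, and no difference between the regimes was tested. All values below are descriptions of these lists. The intervals on shares and on tags (sequenced fragments counted in a peak) cover counting error only. The sources used here do not give the total depth of a library. LD scores ran higher across the whole list (median over all peaks 26 in LL and 48 in LD), so scores and ranks are read within a list, and a score that is higher in one regime is not read as stronger binding. Peak length was fixed at 158 bp in LL and 124 bp in LD.

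Within the window the peaks thinned out with distance from the gene. The median centre lay at −455 bp in LL (middle 50% from −681 to −288 bp) and at −484 bp in LD (−694.75 to −318 bp). The 100 bp nearest the TSS, from −300 to −201 bp, held 111 LL peaks (28.0%) and 90 LD peaks (22.6%). The farthest 100 bp, from −1000 to −901 bp, held 23 LL peaks (5.81%) and 30 LD peaks (7.54%). The median score did not follow this slope. Over the 100 bp steps it lay between 24 (−700 to −601 bp) and 32 (−600 to −501 bp) in LL, with 27 at both ends, and between 47.5 at the far end and 51.5 (−800 to −701 bp) in LD.

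The window's limits cut through a continuous run of peaks. At the near limit, PEX11D (a peroxisome division protein; score 38) and AT5G43260 (score 23) lay at −201 bp in LL, just inside, and AT3G61750 (score 24) lay at −200 bp, just outside. In LD, AT5G27730 (score 51) lay at −201 bp inside, with AT3G16560 (score 120) and AT2G37140 (score 78) at −199 bp outside. At the far limit, the outermost LL peak was one of FKF1 at −993 bp (score 56), followed outside by AT1G49230 at −1008 bp (score 23). The outermost LD peak was NRAMP3 (a metal transporter) at −999 bp (score 42), followed outside by BTI3 at −1002 bp (score 34).

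**Figure D1:**
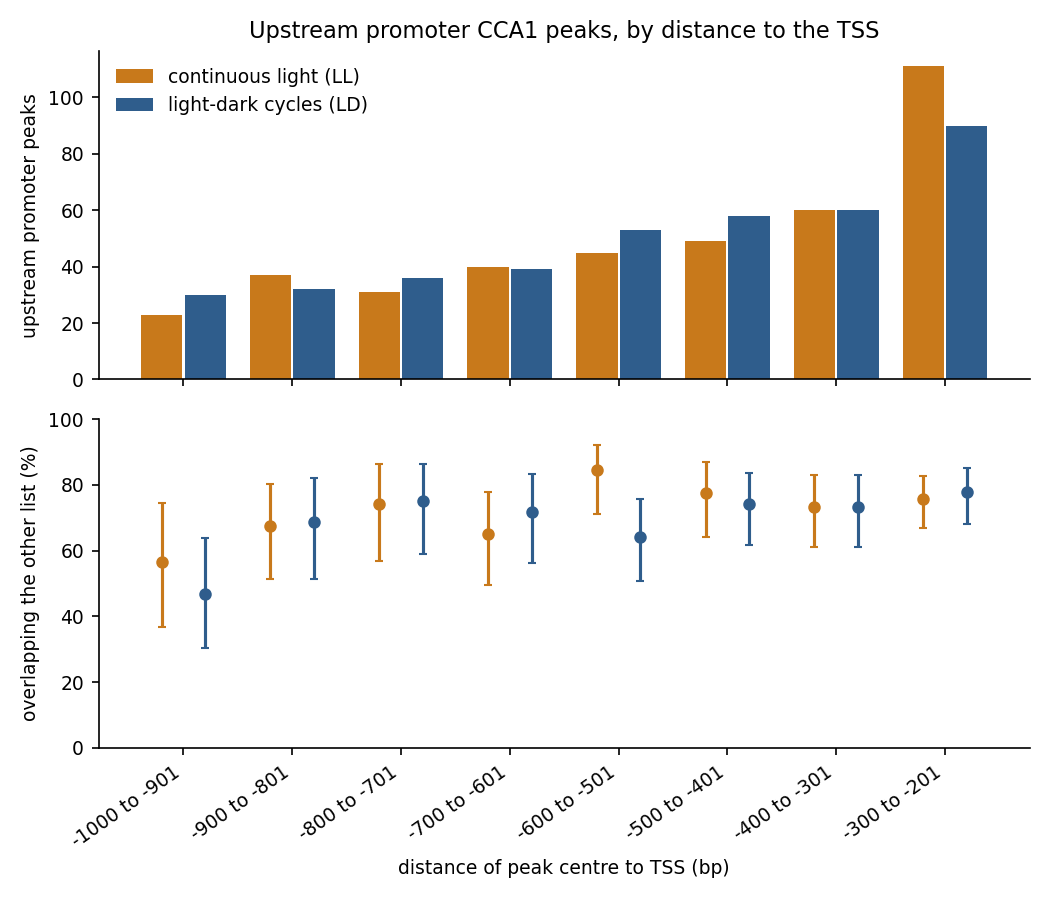
Upstream promoter peaks by distance of the peak centre to the TSS in 100 bp steps, LL (orange, left in each pair) and LD (blue, right): number of peaks (top, bars) and share that overlaps a peak of the other list (bottom, points with 95% Wilson intervals). Counts are highest in the step nearest the TSS, with 111 LL and 90 LD peaks, and the share is lowest in the farthest step in both lists.

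By score and by fold over control, the upstream promoter peaks were close to other CCA1 peaks. Their median score was 26 in LL, beside 25 for core promoter peaks and 26 for all LL peaks, and 50 in LD, beside 47 for core promoter peaks and 48 for all LD peaks. The median fold over control in LL was 14.8 (core promoter 14.7, all peaks 13.6), and LD had 15.8 (core promoter 15.7, all peaks 14.8). Single peaks ranged from a score of 12 to 181 in LL and from 32 to 238 in LD. The highest-scoring peak of each whole list was an upstream promoter peak. In LL it was GRP7 at −203 bp, whose LD counterpart at −188 bp was a core promoter peak. In LD it was AT2G01023, which had the highest control value of all LD peaks, 38.3.

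The DNA around them was richer in A and T. The median GC content of the 500 bp window around the peak was 31.1% in LL, against 34.7% for core promoter peaks and 32.7% for all LL peaks. In LD it was 31.9%, against 35.7% for core promoter peaks and 33.3% for all LD peaks. Inside the window the medians lay between 30.3 and 31.5% over the 100 bp steps in LL and between 30.9 and 32.9% in LD. No upstream promoter DNA without a peak was measured here, so whether this follows the base composition of that zone was not tested.

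The highest-scoring LL peaks lay beside genes of varied function. GRP7, an RNA-binding protein of an evening-phased oscillator that runs downstream of the central clock, led LL with a score of 181 and 229 tags (exact 95% Poisson interval 200.3 to 261) against 3.9 control tags, at −203 bp. FKF1, a blue-light receptor and F-box protein that removes repressors of flowering, had a score of 130 at −225 bp. TOC1, the evening repressor of CCA1, had 128 at −274 bp, and BBX8, a B-box zinc finger protein also called CONSTANS-LIKE 10, had 128 at −387 bp. SLD1, a desaturase of sphingolipid bases, reached 126 at −806 bp, HXK2, a hexokinase, 122 at −511 bp, and PIF5, a bHLH factor that promotes elongation growth, 104 at −583 bp. PAO1, a polyamine oxidase, had 103 at −804 bp. CBF1, a transcription factor of cold acclimation, at −760 bp and BBX13, another B-box protein, at −225 bp shared a score of 101. These peaks lay between −806 and −203 bp. From −1000 to −901 bp the highest LL score was the 56 of FKF1.

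In LD, CBF1 scored 191 at −760 bp, AT3G51400, a gene of unknown function, 188 at −756 bp, and CcdA, a chloroplast protein that passes reducing power across the thylakoid membrane, 185 at −541 bp. They were followed by SLD1 with 179 at −787 bp, FKF1 with 172 at −255 bp, CCA1 itself with 169 at −252 bp, and COL9, a CONSTANS-like protein that delays flowering, with 166 at −630 bp. TOC1 had 157 at −210 bp and PAO1 156 at −822 bp. Each of these genes also had an upstream promoter peak in LL: AT3G51400 with a score of 97, CcdA with 73, CCA1 with 82 and COL9 with 91.

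A gene of unknown function near the end of chromosome 2, AT2G01023, had the highest LD score, 238, and the second highest LL score, 158. Its peak (TAIR10 chr2:9971-10129 in LL, chr2:9983-10107 in LD) also had the highest control value of all peaks, 18.3 scaled control tags in LL and 38.3 in LD, where the median over all peaks was 2.1 and 3.2. Over control its fold was 11.5 for LL and 6.11 for LD, below the medians of the upstream promoter peaks. The peak at CCA1 (chr2:19245379-19245537 in LL, chr2:19245358-19245482 in LD) also had high control values, 6.4 in LL and 11.1 in LD. The line carries the CCA1 promoter a further time in its transgene, and the part of these control values in the scores was not tested.

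**Figure D2:**
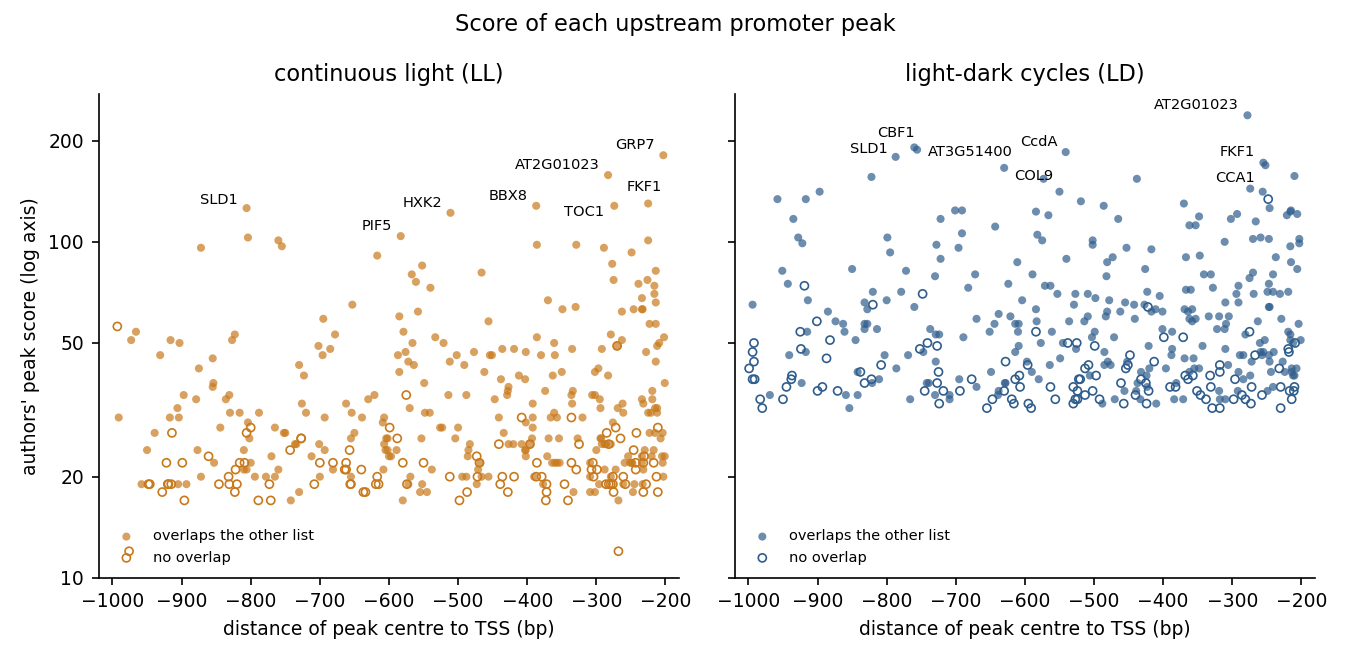
Authors' score (log axis) of every upstream promoter peak against the distance of its centre to the TSS, LL left and LD right. Filled points overlap a peak of the other list and open points do not; the 8 highest peaks of each list are named. High scores occur from the near end (GRP7, 181 in LL) to beyond −750 bp (CBF1, 191 in LD), and open points lie mostly at low scores.

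Most upstream promoter peaks were found in both regimes. In LL, 291 of 396 (73.5%, 68.9 to 77.6%) had an LD peak that overlapped it by 1 bp or more, where the share over all LL peaks was 74.6% and over core promoter peaks 78.3%. In LD, 282 of 398 (70.9%, 66.2 to 75.1%) overlapped an LL peak, where the share over all LD peaks was 66.5% and over core promoter peaks 65.7%. The members' shares thus lay near the background of their list, and whether they differ from it was not tested. In both lists the Wilson interval of the upstream promoter peaks overlapped that of the core promoter peaks.

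How often a peak recurred went with its score. Each whole list was divided by score into 4 equal parts. In the highest-scoring part, 111 of 113 LL upstream promoter peaks (98.2%) and 115 of 118 LD upstream promoter peaks (97.5%) overlapped the other list. The share was 86.2% in LL and 80.6% in LD in the next part, and 65.7% in LL and 59.3% in LD in the one after. In the lowest-scoring part it was 41.2% in LL and 37.4% in LD. All peaks of each list fell off in the same order, with 43.3% in LL and 36.6% in LD in the lowest-scoring part.

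**Figure D3:**
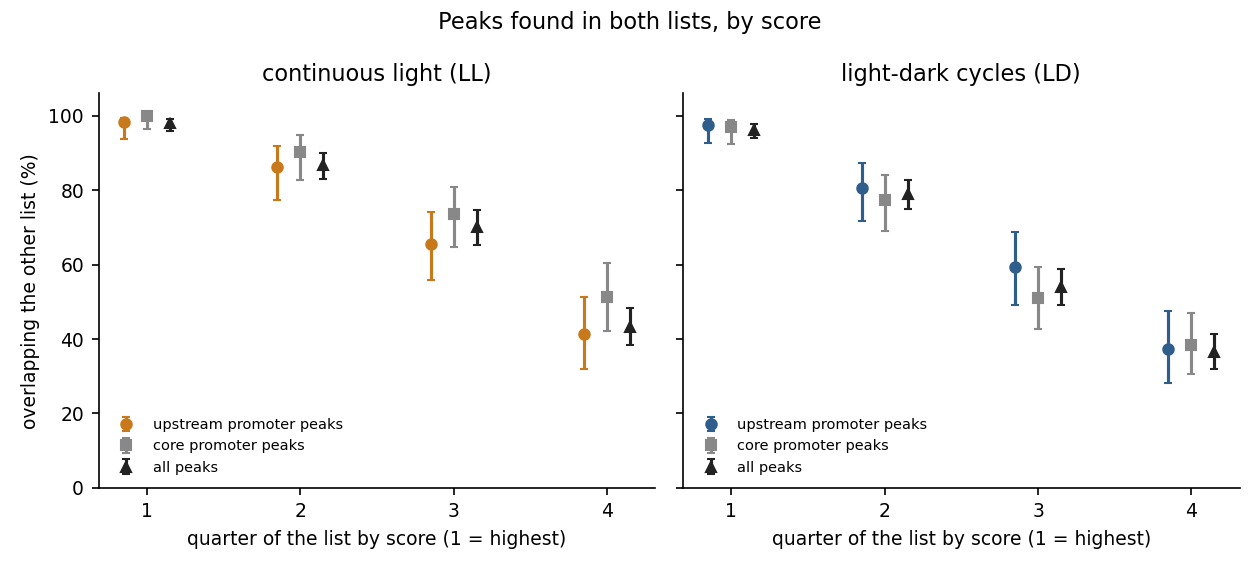
Share of peaks that overlaps the other list, by part of the list when it is divided by score into 4 equal parts (1 is the highest), for upstream promoter peaks (coloured circles), core promoter peaks (grey squares) and all peaks (black triangles) of LL (left) and LD (right), with 95% Wilson intervals. Upstream promoter peaks stand at 98.2% in LL and 97.5% in LD in part 1 and at 41.2% in LL and 37.4% in LD in part 4.

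Peaks at the far end of the window recurred least often, which was examined after the data were seen. From −1000 to −901 bp, 13 of 23 LL peaks (56.5%, 36.8 to 74.4%) and 14 of 30 LD peaks (46.7%, 30.2 to 63.9%) overlapped the other list, against 75.7% of LL peaks and 77.8% of LD peaks (68.2 to 85.1%) from −300 to −201 bp. The intervals of the far and near ends did not overlap in LD and did in LL. The steps between them followed no steady slope: from −600 to −501 bp the share was 84.4% in LL and 64.2% in LD. Over all peaks of a list it was 74.6% in LL and 66.5% in LD. Overlap was counted with any peak of the other list, also one beyond the window. The highest-scoring of these far peaks without a counterpart were FKF1 in LL (−993 bp, score 56) and MSL6 in LD (−919 bp, score 74). CHE, which recurred, lay at −916 bp in LL and −917 bp in LD.

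In 276 cases an LL and an LD upstream promoter peak overlapped each other, and 274 of these pairs were assigned to the same gene. Pairs were formed by overlap, so their centres cannot lie farther apart than the mean of the 2 peak lengths, and the distances below only describe where they fell inside that limit. The median distance between the centres of a pair was 13 bp, and 253 pairs (91.7%) lay within 50 bp. The LL centre was nearer to the TSS in 142 of the pairs with 1 gene, the LD centre in 126, and 6 were equal. In 4 pairs the centres were more than 100 bp apart: PMT6, a polyol transporter, with −545 bp in LL and −410 bp in LD, RD21B, a cysteine protease, with −794 bp in LL and −670 bp in LD, SNC1, an immune receptor, with −566 bp in LL and −682 bp in LD, and PRXR1, a peroxidase, with −602 bp in LL and −709 bp in LD. These 4 were chosen after their values were seen.

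The order of scores was similar in both lists. Over the 276 pairs, Pearson's r of the log2 scores was 0.80 and Spearman's rho of the scores 0.74, as a description of pairs that share the genome position, the antibody and the caller. The median score of a pair was 31 in LL and 59.5 in LD, and the LD score was the higher one in 269 pairs. Placed as a percentile of its own list, the LL and LD peaks of a pair differed by 10.4 percentile points in the median, and by 25 or less in 216 pairs (78.3%). Among the 7 pairs with the higher score in LL was PIF5, with a score of 104 in LL and 87 in LD and with 129 tags (108 to 153) in LL and 84 tags (67.0 to 104) in LD. It was accompanied by GSR 1, a cytosolic glutamine synthetase, with 42 in LL and 35 in LD.

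A difference of more than 50 percentile points was seen in 13 pairs. In 6 of them the LL peak stood higher in its list, among them GSR 1 and CDF1, a repressor of CONSTANS with a score of 36 in LL and 37 in LD. In 7 of them the LD peak stood higher, among them ISA1, a starch debranching enzyme with a score of 17 in LL and 62 in LD, and BAM4, a catalytically inactive β-amylase that acts in starch breakdown, with 20 in LL and 80 in LD. The BAM4 tag intervals did not overlap, with 12.2 to 30.9 tags in LL and 63.4 to 99.6 tags in LD, but these carry the unknown depth of each list. The ISA1 centres lay 99 bp apart, at −580 bp in LL and −481 bp in LD. Its LL peak stood at percentile 2.65 of the LL list. Whether both ISA1 peaks mark the same site was not tested. The pairs named here were chosen after their values were seen.

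**Figure D4:**
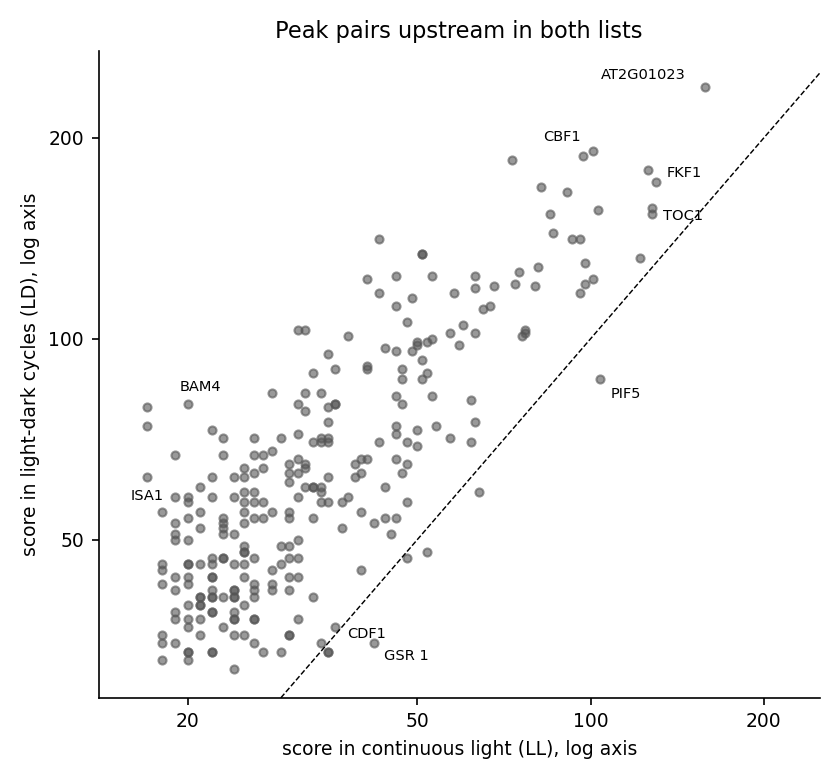
Scores of the 276 peak pairs that lie in the upstream promoter in both lists, LL on the horizontal and LD on the vertical axis (both log axes); the dashed line marks equal scores. Nearly all points lie above the line, since LD scores run higher, and PIF5 (104 in LL, 87 in LD) lies farthest below it among the high scores.

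A further 15 LL peaks had their LD counterpart outside the window, 13 of them in the core promoter and 2 in an intergenic stretch beyond it. The strongest was GRP7, whose LD peak had a score of 236 at −188 bp, 15 bp from the LL centre. LHCB1.4, a chlorophyll-binding protein of the light-harvesting antenna, had 49 at −212 bp in LL and 126 at −180 bp in LD. For 6 LD peaks the LL counterpart lay outside the window, 3 of them in the core promoter, 2 in intergenic stretches and 1 at another promoter distance. PRR5 was among these, with an LD peak of score 75 at −943 bp and an LL peak of score 48 at −1061 bp. In these cases overlapping peaks fell on either side of a limit of the window.

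No overlap with the other list was found for 105 of 396 LL peaks and 116 of 398 LD peaks. As given above, 73.5% of these LL peaks and 70.9% of these LD peaks did overlap. Over all peaks of a list it was 74.6% in LL and 66.5% in LD. The 5 highest of the 105 in LL were FKF1 at −993 bp (score 56), THIC, an enzyme of thiamine synthesis, at −270 bp (49), HCA2, a Dof transcription factor of vascular tissue, at −575 bp (35), and PUB39, a U-box protein, at −336 bp and ASG1 at −408 bp (30 each). The 5 highest of the 116 in LD were HXK2 at −248 bp (score 134), MSL6, a mechanosensitive channel, at −919 bp (74), HCA2 at −748 bp (70), HHP4, a membrane protein of the heptahelical family, at −820 bp (65), and XTH7, a cell wall enzyme, at −422 bp (64). Some of these genes had a peak of the other regime nearby. HXK2 had its other LD peak at −519 bp (132) and its LL peak at −511 bp (122). HCA2 had a peak in each regime, and the 2 centres were 173 bp apart. Of the 105 LL peaks, 94 had no peak centre of the other list within 500 bp and none at the gene. The same held for 95 of the 116 LD peaks. PUB39 and ASG1, tied at a score of 30, led these peaks in LL, and MSL6 led them in LD. These last counts were not made over all peaks of a list, so they are not read as a trait of upstream promoter peaks.

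By gene, the upstream promoter peaks fell beside 392 genes in LL and 389 in LD, and 275 genes had one in both regimes (70.2% of the LL genes and 70.7% of the LD genes). Any peak in the other regime was found at 296 of the LL genes (75.5%), where the share over the genes of all LL peaks was 76.6%, and at 291 of the LD genes (74.8%), where it was 68.8% over the genes of all LD peaks. After the filter on gene type, 3 peaks in each list lay beside genes of non-coding RNA and the others beside protein-coding genes. Most of these genes had no further CCA1 peak in the same list. A core promoter peak stood beside 14 LL genes and 18 LD genes. Any peak outside the upstream promoter, core promoter included, stood beside 32 LL genes and 42 LD genes. Genes with 2 upstream promoter peaks are given below. Most genes of the whole lists likewise had a single peak: 1433 LL peaks lay beside 1306 genes and 1607 LD peaks beside 1455 genes.

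A pair of peaks in the upstream promoter of 1 gene was found at 4 genes in LL and 9 in LD. In LL these were FKF1, SLD1, AT5G57040 and AT5G66580. In LD they were WLIM1 (a LIM domain protein), AT1G49230, MYBL2 (a repressor of anthocyanin synthesis), HXK2, AT3G54000, SLD1, PRR5, CRF3 (a cytokinin response factor) and AT5G66580. SLD1 and AT5G66580 had both peaks in both regimes. At SLD1 the far peak was the stronger one, with 126 at −806 bp and 25 at −288 bp in LL, and 179 at −787 bp and 48 at −310 bp in LD. At MYBL2 it was the near one, with 120 at −221 bp and 36 at −694 bp in LD and a single LL peak of 68 at −234 bp.

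Among 225 genes in 14 lists of clock, light, cold and metabolic pathways, 24 had an upstream promoter peak in LL and 23 in LD, 20 of them in both and 27 in either. Core promoter peaks stood at 40 of the 225 genes in LL and 44 in LD. Peaks of any kind stood at 76 in LL and 81 in LD. An upstream promoter peak was thus found at 24 of these 76 genes and 23 of these 81. Over the genes of all peaks it was found at 392 of 1306 in LL and 389 of 1455 in LD. Whether the listed genes differ from that background was not tested. The lists were chosen with earlier results of these data known, so their counts are not read as enrichment. Of the 13 genes of the evening clock, FKF1, TOC1 and CHE had an upstream promoter peak in both regimes, while 8 genes of that list had a core promoter peak in LL and 7 in LD. The TOC1 peak (chr5:24674711-24674869 in LL, chr5:24674792-24674916 in LD) had 155 tags (132 to 181) in both lists. CHE, a TCP factor that represses CCA1, had a score of 51 in LL and 134 in LD.

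Of the 4 pseudo-response regulators, repressors of CCA1 that act in sequence through the day, PRR5 had an upstream promoter peak, with a score of 98 at −386 bp in LL and 130 at −370 bp in LD. It also had a core promoter peak in both lists, 44 at 89 bp downstream in LL and 74 at 80 bp downstream in LD. Of the 14 genes of the CCA1 family and its partners, CCA1, RVE7 and RVE1 had one in both regimes. CCA1 scored 82 at −214 bp in LL and 169 at −252 bp in LD. RVE7, a MYB-like relative of CCA1, had 53 at −279 bp in LL and 100 at −311 bp in LD. RVE1, a relative that links the clock to auxin, had 47 at −477 bp in LL and 87 at −481 bp in LD, with further peaks outside the promoter in both lists.

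The B-box and CONSTANS-like list, zinc finger proteins of light signalling and flowering, had 5 of 21 genes with an upstream promoter peak in both regimes. This was the largest number of the 14 lists, which differ in length. The evening clock list had 3 of 13 and the pseudo-response regulators 1 of 4. The B-box list does not hold BBX13, the B-box gene described above with 101 in LL, which had 123 at −216 bp in LD. BBX8 had a score of 128 in LL and 154 in LD, and COL9 91 in LL and 166 in LD. BBX22, which promotes light-grown development, had 59 at −695 bp in LL and 98 at −728 bp in LD. BBX28 had 50 at −521 bp in LL and 98 at −502 bp in LD, and BBX29 37 at −427 bp in LL and 52 at −503 bp in LD. BBX22 and BBX28 had a second peak in the core promoter in both regimes. BBX29 was displaced by 76 bp between the lists. Of the 25 light signalling genes, PIF5 was the 1 gene with an upstream promoter peak. PIL2, described as transcription factor PIF6, is outside that list. It had 40 at −412 bp in LL and 63 at −411 bp in LD, and was chosen after its values were seen.

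Of the 13 photoperiodic flowering genes, CDF1 and SOC1 had an upstream promoter peak in both regimes and CDF5 in LD. SOC1, which integrates flowering signals, had 21 at −806 bp in LL and 46 at −803 bp in LD. CDF5, like CDF1 a Dof repressor of CONSTANS, had 48 at −924 bp in LD and a core promoter peak in both lists. Of the 24 cold response genes, CBF1 and ERD10, a dehydrin, had one in both regimes. CBF1 (chr4:13023406-13023564 in LL, chr4:13023423-13023547 in LD) had 125 tags (104 to 149) in LL and 189 tags (163 to 218) in LD, with centres at −760 bp in both lists. It lies in a tandem array with the near-identical CBF3 and CBF2, so its assignment is uncertain where reads could map to several copies. COR413PM1, a plasma membrane protein induced by cold, had 19 at −276 bp in LL and, in LD, a core promoter peak of 50 at −4 bp, which did not overlap it. ZAT12, a stress-induced zinc finger protein, with 50 at −992 bp, and GOLS3, a galactinol synthase, with 36 at −211 bp, had one in LD alone among the 2 lists.

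Of the 20 antenna genes, LHCB1.3 had an upstream promoter peak in both regimes, at the very edge of the window (−202 bp, 52 in LL; −203 bp, 99 in LD), and LHCB1.4 in LL. The LHCB1 genes are near-identical copies, and the LHCB1.4 peak of LL was assigned to LHCB1.5 by the authors' annotation column, so which copy they belong to is uncertain. Of the 24 starch genes, DPE1, a plastid enzyme that rearranges maltose units, had one in both regimes (34 at −447 bp in LL, 59 at −441 bp in LD), while core promoter peaks stood at 9 genes of that list in LL and 7 in LD. The starch genes SBE2.1, PGM, ISA1 and BAM4, outside that list, also had one in both regimes. ISA1 and BAM4 are described above, and SBE2.1 and PGM below. Of the 19 phenylpropanoid genes, CHS, the first enzyme of flavonoid synthesis, had 26 at −294 bp in LL and 59 at −353 bp in LD, and FLS1, a flavonol synthase, had 19 at −282 bp in LL. The annotation column assigned the LL peak of CHS to another gene, AT5G13920. The fold over control of that peak was 5.94, where the median of LL upstream promoter peaks was 14.8. No phenylpropanoid gene had a core promoter peak. None of the 17 gibberellin, 15 abscisic acid and 14 jasmonate genes had an upstream promoter peak in either list. These lists are short, and genes of the same pathways outside them did have one. PYL7, an abscisic acid receptor, had 33 at −232 bp in LL and 70 at −231 bp in LD, and AFP2, which binds the abscisic acid factor ABI5, had 29 at −804 bp in LL and 71 at −820 bp in LD. LOX2, a lipoxygenase of jasmonate synthesis, had 25 at −292 bp in LL and 46 at −257 bp in LD. CYP94B3, an enzyme of jasmonate breakdown, had 20 at −213 bp in LL, without an overlapping LD peak. These 4 were chosen after their values were seen.

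**Figure D5:**
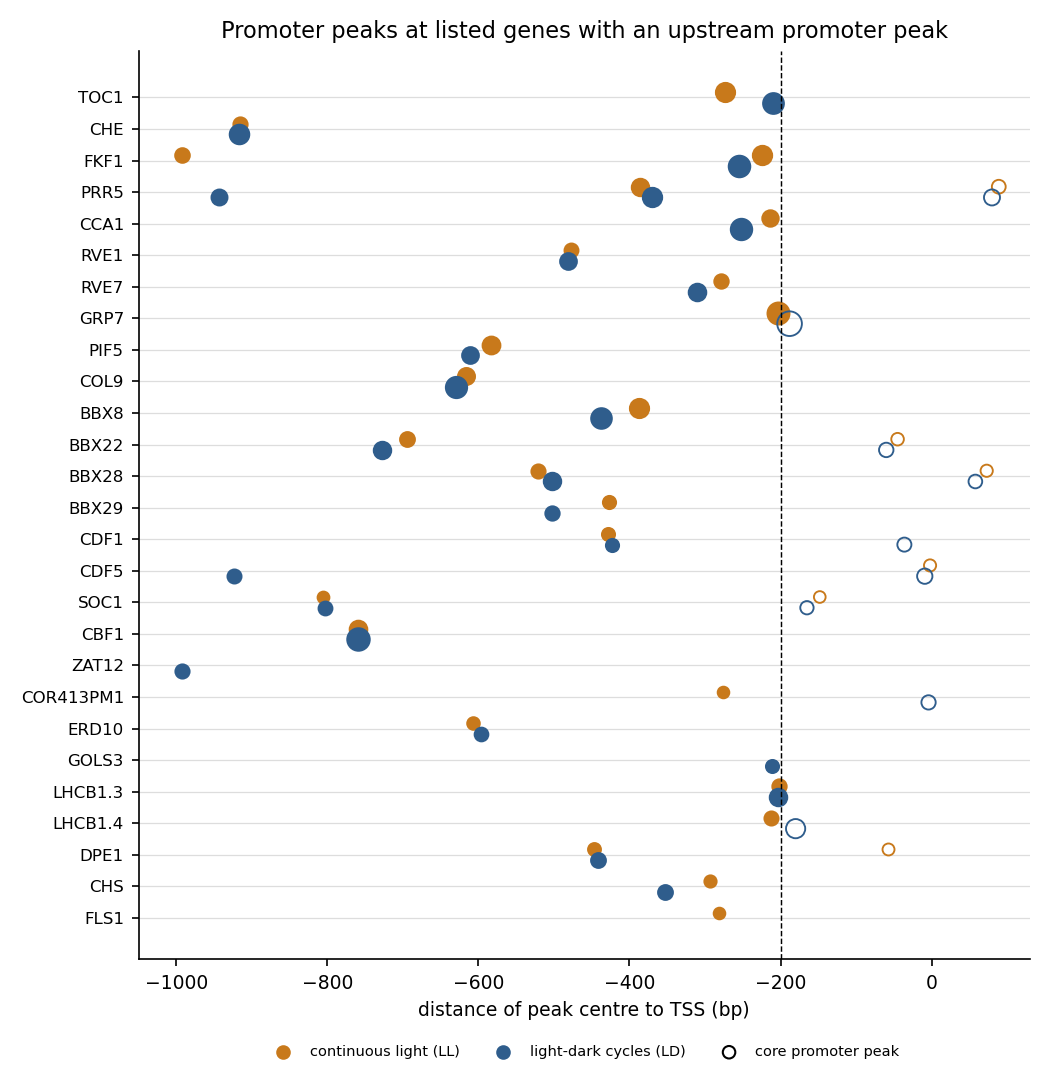
Promoter peaks at the 27 listed genes with an upstream promoter peak, by distance of the peak centre to the TSS, LL (orange, upper) and LD (blue, lower) in each row; filled points are upstream promoter peaks, open points core promoter peaks, point area grows with the authors' score, and the dashed line is the near limit of the window. GRP7 and LHCB1.4 lie on either side of the limit in the 2 regimes.

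The nearest TSS is not always that of the gene a peak was annotated to. For 25 peaks in each list the annotation column named another gene. In this way a peak beside AT3G46630 (57 at −223 bp in LL, 102 at −203 bp in LD) was annotated to LUX, a subunit of the evening complex, and one beside AT2G46787 (24 at −403 bp in LL, 41 at −432 bp in LD) to PRR9, a morning pseudo-response regulator. Both distances are to the nearest gene, not to LUX or PRR9, and the lists cannot tell which of the 2 genes a peak belongs to. These 2 examples were chosen after their values were seen.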

How the data were processed

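The submitters' processing notes name HOMER 4.7, Bowtie2 2.2.1, Trimmomatic 0.33 and CASAVA 1.8, and the TAIR10 build. Peaks came from HOMER's findPeaks, ranked by an irreproducible discovery rate (IDR) step on combined data of which the top set was kept, and were annotated with annotatePeaks.pl over 500 bp, per the file headers. The sources used here do not state the IDR threshold, duplicate handling or the control library. For each peak the authors deposited a count of total tags, control tags scaled to the precipitated library (a signal), a fold ratio over these, a score, p-values that were not used here, and the GC fraction, printed here as percent. No column of per-sample values was left unused.

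Each list was filtered by category, distance and gene type. Shares carry 95% Wilson and tags exact 95% Poisson intervals. Peaks overlapping by at least 1 bp were called shared. No test across peaks was run, since each regime is 1 pooled list, and the overlap step was checked on simulated peaks. Gene names came from a RefSeq gene table of TAIR10.1, which matched 386 of 392 LL genes and 383 of 389 LD genes. The peaks and gene lists were chosen with earlier results of these data known. Named were the 10 highest peaks of each list (with ties), the 5 highest unshared, listed genes, genes with several peaks, peaks at the window's limits, and the exceptions stated as chosen after their values were seen. Among shared peaks of differing class, GRP7, LHCB1.4 and PRR5 were chosen after their values were seen. Alternatives were other overlap rules, the upper 50% by score, equal list sizes, total tags or fold in place of the score, the annotation column's gene, and no gene type filter. Peak sequences were not analysed here.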

Additional observations from a re-analysis of the deposited data

How the results depend on the processing

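Recomputing the counts, shares, ratios and listed-gene counts gave 42 alternative values. Of these, 39 stayed within the 95% Wilson interval of the share or within 1.5 times the count or ratio, and 3 moved outside. In LL, 79.0% of upstream promoter peaks overlapped the other list within the upper 50% of each list by score, against 73.5% over all. In LL, 74.9% of genes had an upstream promoter peak in both regimes within the upper 50% of each list by score, and 75.5% when any LD peak at the gene counted, against 70.2%. The lower recurrence from −1000 to −901 bp, examined after the data were seen, was 52.2% in LL and 43.3% in LD with an overlap of at least 50% of both peaks, and 66.7% of 12 LL peaks and 60.0% of 15 LD peaks in the upper 50% of each list by score, where the near end had 82.5% in LL and 74.5% in LD. No paired analysis was possible because the libraries of a regime were deposited as 1 combined list, and for the same reason no replicate could be left out. Evening elements were not counted, and their alternatives not run, because no genome sequence was used here. Unknown depth and the differing peak lengths limit every comparison between the regimes.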

Other observations

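Classes made from words in the gene descriptions, chosen after the data were seen, also covered genes outside the lists above. Transcription factors were 53 of 392 LL genes with an upstream promoter peak (13.5%, 95% Wilson interval 10.5 to 17.3%), where the share was 8.83% over genes with a core promoter peak and 10.8% over the genes of all LL peaks. In LD they were 50 of 389 (12.9%, 9.89 to 16.5%), where it was 7.80% for the core promoter and 10.1% for all peaks. Among them were HSFA6B, a heat stress factor, with a score of 86 in LL and 144 in LD, and CRF4, a cytokinin response factor, with 85 in LL and 154 in LD. These shares were not tested.

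Sugar and starch genes were 14 of 392 LL genes (3.57%, 2.14 to 5.90%), where the share was 1.67% for the core promoter and 1.61% for all peaks. In LD they were 13 of 389 (3.34%, 1.96 to 5.63%), where it was 1.56% for the core promoter and 1.51% for all peaks. The set spans starch building, with SBE2.1, a branching enzyme, at 74 in LL and 121 in LD, and PGM, the plastid phosphoglucomutase, at 39 in LL and 62 in LD. It also holds trehalose-6-phosphate metabolism, with TPS10 at 54 in LL and 74 in LD and TPPG at 35 in LL and 57 in LD, and the vacuolar sugar carriers TMT1 at 48 in LL and 65 in LD and TMT2 at 25 in LL and 44 in LD. None of these named genes is in the starch list above, in which DPE1 alone had an upstream promoter peak, so the count depends on which genes are listed. The other 6 classes were protein kinases, ubiquitin pathway, transporters and channels, cytochrome P450 enzymes, cell wall enzymes and DnaJ chaperones. They also had a higher share among genes with an upstream promoter peak than among the genes of all peaks in both lists. The difference is thus not particular to sugar and starch genes. For every class, the genes of all peaks include those with an upstream promoter peak and the gene types left out here. These shares are therefore not like for like. Protein kinases were 15 LL genes (3.83%, all peaks 2.91%) and 21 LD genes (5.40%, all peaks 3.09%). Ubiquitin pathway genes were 20 LL genes (5.10%, all peaks 3.75%) and 19 LD genes (4.88%, all peaks 3.78%). Transporters and channels were 16 LL genes (4.08%, all peaks 2.99%) and 17 LD genes (4.37%, all peaks 3.71%). The 3 remaining classes held between 4 and 9 genes in a list.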
